A study of Mus musculus with 5 samples.

Results

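The TNF superfamily ligands are cytokines, most of them made as membrane proteins that act as trimers on receptors of the TNF receptor superfamily. The 10 genes described here are Tnf, Tnfsf8, Tnfsf9, Tnfsf10, Tnfsf11, Tnfsf12, Tnfsf13b, Tnfsf14, Fasl and Cd40lg. All 10 were found by symbol among the 19726 gene symbols listed. The libraries came from CD4+ T cell samples of C57/Bl6j mice, wild-type and aged 7 weeks, taken from spleen (n = 3, replicates 1, 2 and 3) or from MC38 tumor (n = 2, replicates 2 and 3). MC38 is a colon carcinoma line of mouse that grows as a transplanted tumor. The labels name no treatment or altered allele in either group, and they do not state the isolation method or whether each replicate was a separate mouse. The p-values below therefore cover only the spread among these libraries, and part of it may be technical.

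The family works by contact or over short distances. Tnf drives inflammation through Tnfrsf1a and Tnfrsf1b. Cd40lg, Tnfsf8, Tnfsf9 and Tnfsf14 are costimulatory ligands, and Cd40lg on activated helper T cells licenses B cells, dendritic cells and macrophages through Cd40. Fasl and Tnfsf10 (TRAIL) are death ligands, Tnfsf13b (BAFF) supports B cell survival, Tnfsf11 (RANKL) is needed for osteoclasts and lymph node formation, and Tnfsf12 (TWEAK) acts on stroma and epithelium. Macrophages and other myeloid cells express several of these genes as well as T cells.

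The libraries differ in content between the tissues, and this stands before every result below. The 11 T cell identity genes had sums of 945.5 to 1250.2 TPM (a relative transcript abundance corrected for length) in the spleen libraries against 233 to 297 TPM in the tumor libraries, and all 11 fell. The 16 macrophage and monocyte markers gave sums of 25.2 to 28.4 TPM in spleen against 7162 to 7549.6 TPM in tumor, and all 16 rose. Cd4 itself averaged 115 ± 16.5 TPM over spleen (SD, n = 3) and 27.0 ± 0.22 TPM over tumor libraries (SD, n = 2). Sums were 51.5 to 60.7 against 117 to 166 TPM for 8 dendritic cell markers, 18.7 to 25.5 against 70.1 to 75.8 TPM for 8 neutrophil markers, and 4.95 to 6.14 against 91.0 to 114 TPM for 6 platelet markers, of which Pf4 made up 94.5 TPM on average in tumor. Itgax made up 112 TPM of the dendritic and Csf3r 55.5 TPM of the neutrophil sum on average in tumor: 2 of 6 tested dendritic and 2 of 5 tested neutrophil markers rose, and 1 fell in each list. The endothelial list summed to 64.6 to 74.0 against 94.4 to 103 TPM (2 of 4 tested rose), the erythroid list to 7.63 to 12.4 against 12.6 to 17.7 TPM (3 of 5 tested rose, 1 fell) and the fibroblast list to 11.1 to 20.8 against 12.7 to 15.6 TPM (none of 4 tested called). Those of 8 B cell markers (15.2 to 17.5 against 12.3 to 14.0 TPM), 8 CD8 T and NK cell markers (21.1 to 23.6 against 13.3 to 13.5 TPM) and 8 epithelial carcinoma markers (2.69 to 3.61 against 2.29 to 2.33 TPM) were low in both tissues. Of 6 tested B cell markers 1 rose and 2 fell, and of 6 tested CD8 T and NK cell markers 3 fell and none rose. No epithelial marker passed the filter for testing. No marker of any list was at 0 in every library of a tissue. The part of these markers' cell types in the ligand results was not tested, and in bulk RNA fewer cells of a type cannot be told apart from less RNA per cell. As a background level, the 95th percentile of 1134 olfactory receptor genes lay between 7.59 and 16.2 TPM, by library.

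Across all 12979 genes tested, limma's test (adjusted p below 0.05, Benjamini-Hochberg) called 59.0% of genes, 40.9% as higher and 18.1% as lower in tumor. All 10 ligands passed the filter of a mean of at least 1 TPM, Tnfsf9 through its tumor level alone and Cd40lg through its spleen level alone. Of these, 5 rose in tumor (Tnf, Tnfsf9, Tnfsf12, Tnfsf14 and Tnfsf10), 3 fell (Cd40lg, Fasl and Tnfsf8) and 2 (Tnfsf11 and Tnfsf13b) were not called. When the libraries were scaled on the T cell identity genes, 9 rose and 1, Cd40lg, fell, where 12955 of all 13583 genes tested rose. The ligands' median log2 change was 0.80, against 0.23 over all genes tested. Fold changes in log2 are differences of log2(TPM + 1), which understate the change of genes at low level. Under their own scaling, the 11 T cell identity genes ranged in log2 change from -0.95 to 1.14, with 3 called as higher and 3 as lower. No overlap between the tissues was seen for 9 of the 10 ligands, against 70.4% of all genes tested: both tumor libraries lay above every spleen library for 6 (46.6% of genes) and below for 3 (23.8% of genes).

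**Figure D1:**
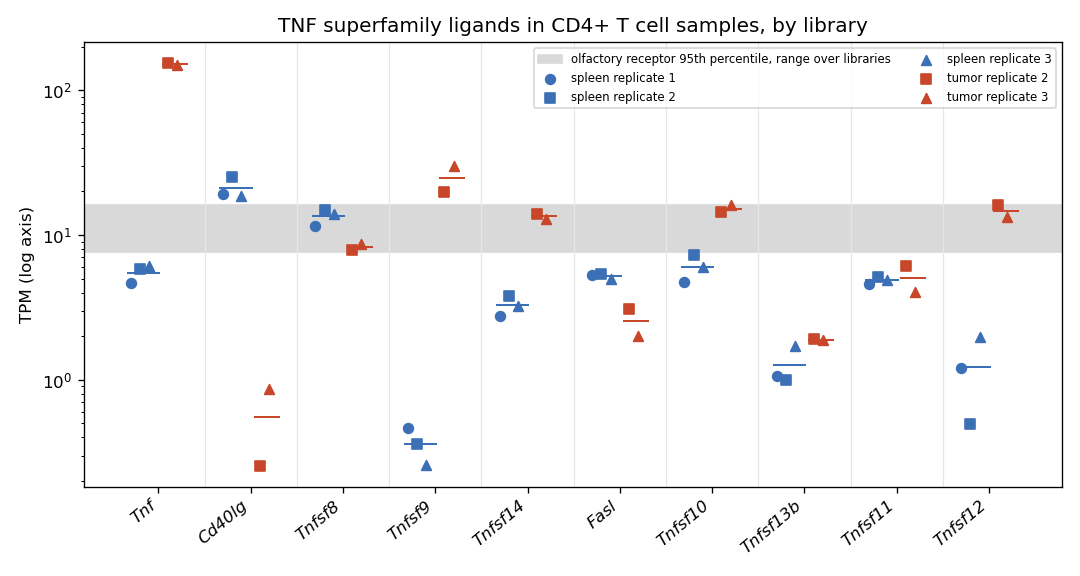
TPM (log axis) of each of the 10 ligands in each library, with spleen in blue, tumor in red, the replicate number as the marker shape and a bar at each tissue's mean; the grey band spans the libraries' 95th percentiles of olfactory receptor genes, 7.59 to 16.2 TPM. Tnf and Tnfsf9 in tumor and Cd40lg in spleen stand above the band in all their libraries, and Tnfsf11 overlaps between the tissues.

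For 2 ligand genes that rose under every scaling tried, Tnf and Tnfsf14, and whose RefSeq and GENCODE start sites lie within 4 bases of each other, the 250 bases before the start are shown. The part of these sequences in the change was not tested. Both are read 5′ to 3′ on the minus strand of GRCm38.p6 and credited to RefSeq, Tnf at chr17:35202008-35202257 and Tnfsf14 at chr17:57194182-57194431. Capitals mark matches to the motifs named after them.
Tnf: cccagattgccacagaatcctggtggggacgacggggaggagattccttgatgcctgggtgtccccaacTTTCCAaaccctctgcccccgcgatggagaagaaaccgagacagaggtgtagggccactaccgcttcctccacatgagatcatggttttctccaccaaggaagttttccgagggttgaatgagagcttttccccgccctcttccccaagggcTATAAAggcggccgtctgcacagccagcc
Tnfsf14: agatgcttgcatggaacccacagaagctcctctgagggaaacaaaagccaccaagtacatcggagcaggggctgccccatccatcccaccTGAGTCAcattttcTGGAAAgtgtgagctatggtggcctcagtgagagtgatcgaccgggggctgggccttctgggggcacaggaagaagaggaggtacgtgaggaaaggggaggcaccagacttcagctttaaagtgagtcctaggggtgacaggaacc
The Tnf window held the NFAT core TGGAAA on the opposite strand, starting 181 bases before the start, and the TATA box letters TATAAA 29 bases before it. In the Tnfsf14 window the AP-1 letters TGANTCA began 160 bases and the NFAT core 146 bases before the start. Of all 32851 windows of this length, 18.6% held the NFAT core, 12.4% the TATA box letters and 6.75% the AP-1 letters, on either strand. The NF-kappaB consensus (3.9% of windows), the interferon response element core (2.98%) and the cyclic AMP response element TGACGTCA (1.55%) were not in either window. These matches describe letters only, and no motifs overlapped. Of the 10 ligands 7 had a promoter entry. Among the other 5, the NFAT core was in the window of Tnfsf10, the TATA box letters in that of Tnfsf11, and the AP-1 letters and the interferon element core in 1 of 2 windows of Tnfsf13b. No motif matched before Fasl or Tnfsf8.

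Tnf, the inflammatory cytokine of the family, had the largest rise of the 10 on the log2(TPM + 1) scale, while the ratio of mean TPM was larger for Tnfsf9 (68.8-fold). The gene lies on chromosome 17 at 35199381 to 35202007 (GRCm38, minus strand). It was at 4.63, 5.79 and 6.07 TPM in spleen replicates 1, 2 and 3 and at 155 and 149 TPM in tumor replicates 2 and 3. Every spleen library lay below, and both tumor libraries above, the olfactory receptor level of the same library. The mean TPM was 27.7-fold higher in tumor (5.50 ± 0.76, SD, n = 3, against 152 ± 4.32, SD, n = 2). The log2 change was 4.57 ± 0.21 (SE; limma adjusted p = 9.09e-25), and it stayed between 3.61 and 6.57 over 6 scalings of the libraries. Among all listed genes of a library, Tnf stood at percentiles 60.8 to 65.7 in spleen and at 97.2 and 96.8 in tumor, a rank that no scaling changes.

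Among the 4 costimulatory ligands, Cd40lg and Tnfsf9 moved furthest, in opposite directions. Cd40lg (chromosome X, 57212143 to 57224042) was the most abundant of the 10 in every spleen library, at 19.3, 25.0 and 18.7 TPM, and the least abundant in both tumor libraries, at 0.25 and 0.86 TPM. Every spleen value lay far above both tumor values, which were under 1 TPM. The log2 change was -3.84 ± 0.21 (SE; limma adjusted p = 3.32e-21). Cd40lg also fell relative to the T cell identity genes: per 100 TPM of their sum it stood at 1.95 ± 0.12 in spleen and 0.23 ± 0.20 in tumor, and the log2 change scaled on them was -2.43. It was the one ligand of the 10 that fell under all 6 scalings.

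Tnfsf9 (4-1BBL, the ligand of the costimulatory receptor Tnfrsf9) was the lowest of the 10 in each spleen library, at 0.47, 0.36 and 0.26 TPM. In tumor it was the second most abundant, at 19.7 TPM in replicate 2 and 30.2 TPM in replicate 3. All spleen libraries lay under 1 TPM and both tumor libraries above their olfactory receptor level. The log2 change was 4.22 ± 0.22 (SE; limma adjusted p = 9.73e-23), with 3.52 to 5.68 over the scalings and 1.74 to 5.75 with pseudocounts of 10 and 0.1. The 2 tumor libraries differed most in this gene among the ligands that rose (24.9 ± 7.43 TPM, SD, n = 2).

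Tnfsf14 (LIGHT, a costimulatory ligand of Tnfrsf14 and Ltbr) was at 2.78, 3.82 and 3.22 TPM in spleen and at 14.1 and 13.0 TPM in tumor, without overlap. It was 4.13-fold higher in mean TPM, with a log2 difference of 1.77 ± 0.21 (SE; limma adjusted p = 2.54e-10), and rose under all 6 scalings. Tnfsf8 (CD30L, the ligand of Tnfrsf8) was second to Cd40lg in spleen, at 11.6, 15.0 and 14.0 TPM, and was at 7.94 and 8.65 TPM in tumor. All tumor values were below all spleen values, near the olfactory receptor level in both tissues. Its log2 change was -0.64 ± 0.21 (SE; limma adjusted p = 0.00732). The fall of Tnfsf8 was not called without spleen replicate 3 (limma adjusted p = 0.0511) or without tumor replicate 2 (log2 change -0.58). It turned into a rise of 1.36 when scaled on the T cell identity genes (limma adjusted p = 1.2e-05).

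The death ligands went opposite ways in the deposited TPM. Fasl, which triggers apoptosis through Fas, was at 5.31, 5.40 and 4.95 TPM in spleen and at 3.08 and 2.02 TPM in tumor, below the olfactory receptor level in every library. Its log2 change was -0.83 ± 0.21 (SE; limma adjusted p = 0.00075). The call was lost without tumor replicate 3 (limma adjusted p = 0.0595, range 0.00017 to 0.0595 over the alternatives), and scaled on the T cell identity genes Fasl rose by 0.89. Tnfsf10, which acts on the death receptor Tnfrsf10b, was at 4.71, 7.31 and 5.99 TPM in spleen and at 14.4 and 16.1 TPM in tumor. The tissues did not overlap, and only the tumor libraries exceeded their olfactory receptor level. Its log2 change was 1.23 ± 0.21 (SE; limma adjusted p = 2.04e-06), positive under all 6 scalings. It was not called when scaled to equal sums (0.38, limma adjusted p = 0.0514) or to sums that omit the 20 most abundant genes (0.31, limma adjusted p = 0.0807), in a range of 1.38e-10 to 0.0807 over the alternatives.

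Of the B cell and tissue ligands, only Tnfsf12 was called. Tnfsf12 (chromosome 11, 69686250 to 69695849) was at 1.22, 0.50 and 1.96 TPM in spleen and at 16.1 and 13.2 TPM in tumor. Both tumor libraries lay above every spleen library, in which the values varied the most of the 10 ligands relative to their mean (1.23 ± 0.73 TPM, SD, n = 3). The log2 change was 2.86 ± 0.23 (SE; limma adjusted p = 1.53e-15), and it rose under all 6 scalings. Tnfsf12 overlaps on its own strand the gene Tnfsfm13, a joint transcript unit with its neighbour Tnfsf13, which was listed at 0.07 to 0.27 TPM in spleen and at 6.02 and 8.61 TPM in tumor. How reads were split among these 3 genes is not given in the labels, so their separate levels are uncertain.

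Tnfsf13b was at 1.07, 1.00 and 1.72 TPM in spleen and at 1.91 and 1.88 TPM in tumor. All values were far below the olfactory receptor level. The tumor values were above those of spleen, but by less than the test requires (log2 change 0.37 ± 0.22, SE; limma adjusted p = 0.148). The sign of the change turned, uncalled, under 3 scalings: to equal sums, to the upper quartile, and to sums that omit the 20 most abundant genes. Tnfsf13b was called only when scaled on the T cell identity genes, as higher by 1.75 (limma adjusted p = 2.48e-06). Tnfsf11 was at 4.61, 5.14 and 4.89 TPM in spleen and at 6.11 and 4.03 TPM in tumor, so the tumor libraries lay on both sides of the spleen range. Its log2 change was 0.03 ± 0.21 (SE; limma adjusted p = 0.921). Its sign depended on the scaling: it was called as lower under 3 scalings and as higher when scaled on the T cell identity genes.

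**Figure D2:**
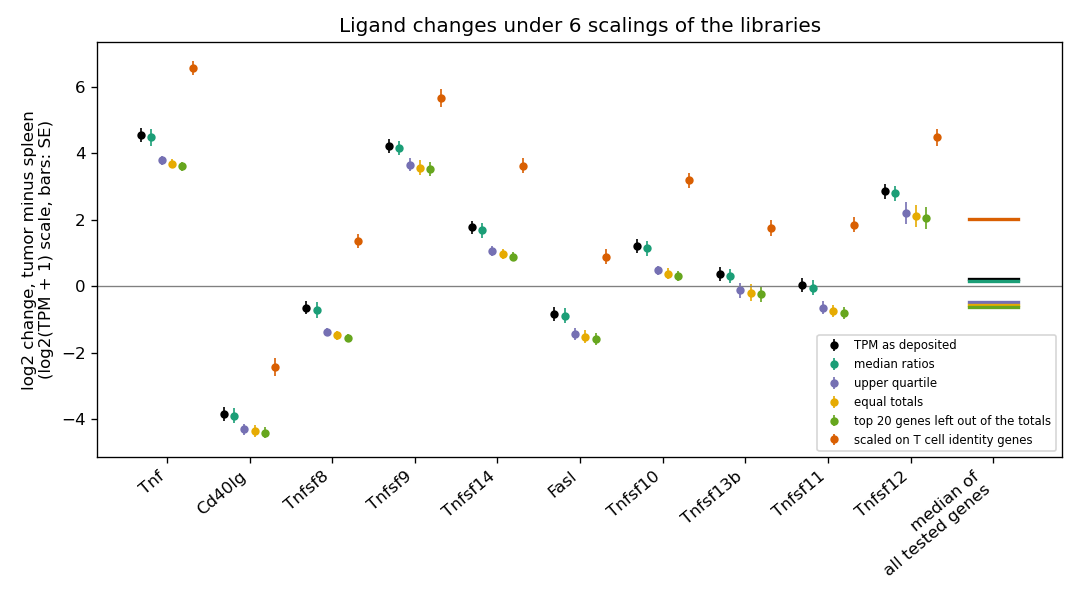
Log2 change of each ligand (tumor minus spleen, log2(TPM + 1) scale, bars show the SE) with TPM as deposited and under 5 other scalings, with the median of all tested genes under each scaling at the right. Tnf, Tnfsf9, Tnfsf12 and Tnfsf14 stay above 0 and called under all 6, Tnfsf10 stays above 0 but is called under 4, Cd40lg stays below 0, and Fasl and Tnfsf8 cross 0 when scaled on T cell identity genes.

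The scalings moved all genes together. The median log2 change of all tested genes was 0.23 with TPM as deposited, 0.16 by median ratios, -0.47 to the upper quartile, -0.56 to equal sums, -0.62 to sums omitting the 20 most abundant genes, and 2.04 on the T cell identity genes. Each scaling shifts genes at high level nearly alike and genes at low level less, since 1 TPM is added before the log. Subtracting that median removes most of the shift. The ligands' closer values relative to the median are therefore largely by construction. Tnf lay 4.24 to 4.52 above it, Tnfsf9 3.64 to 4.15 above, and Tnfsf10 0.93 to 1.15 above. Cd40lg lay below it, by -4.47 to -3.79. Fasl also lay below it, by -1.15 to -0.95, as did Tnfsf8, by -0.93 to -0.68, and Tnfsf11, by -0.21 to -0.18. Tnfsf13b ranged from -0.29 to 0.39 around it.

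The make-up of the ligand transcripts, which does not depend on how a library is scaled, differed between the tissues. Summed, the 10 ligands came to 62.3 ± 6.84 TPM over spleen libraries (SD, n = 3) and 239 ± 0.24 TPM over tumor libraries (SD, n = 2). Without Tnf, the other 9 summed to 56.8 ± 6.32 and 86.7 ± 4.56 TPM. Unlike the shares below, both sums depend on the scaling. The total of all listed genes was also larger in tumor libraries (596116 and 569309 TPM) than in spleen libraries (268987 to 359532 TPM). The higher sum of the 9 in tumor is therefore not a rise relative to all listed genes. Of the sum of the 10, Tnf made up 8.32%, 8.34% and 9.83% in spleen and 65.0% and 62.4% in tumor. The share of Cd40lg was 34.7%, 36.1% and 30.3% in spleen and 0.11% and 0.36% in tumor, and that of Tnfsf8 went from 21.7 ± 0.94% to 3.47 ± 0.21%. Tnfsf9 was at 0.59 ± 0.22% and 10.4 ± 3.10%. The share of Tnfsf14 was 4.99% to 5.51% in spleen and 5.42% and 5.89% in tumor, so that it overlapped between the tissues while its TPM did not.

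**Figure D3:**
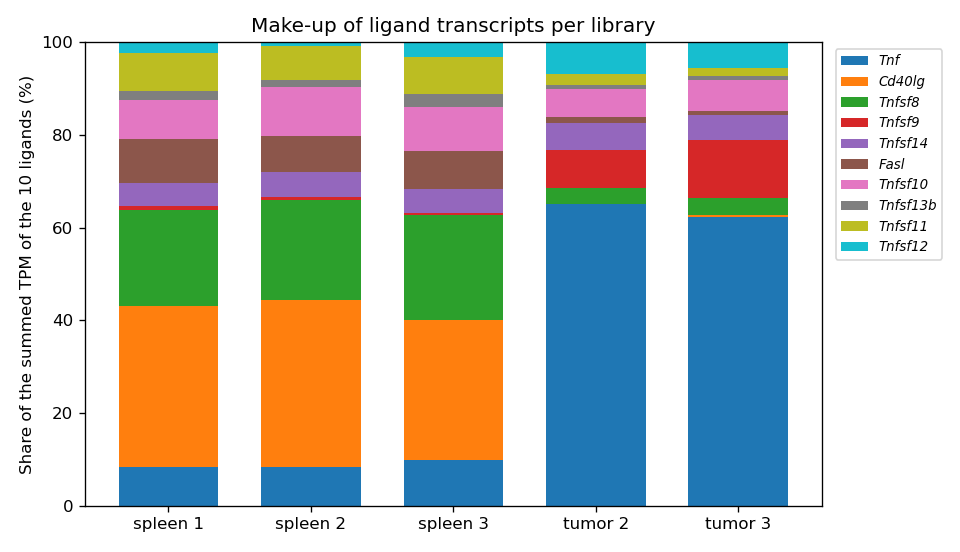
Share (%) of each ligand in the summed TPM of the 10, 1 bar per library. Cd40lg and Tnfsf8 are the 2 largest shares in the 3 spleen libraries, and Tnf takes over 60% in both tumor libraries (65.0% and 62.4%).

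Ordered by mean TPM, spleen ran Cd40lg, Tnfsf8, Tnfsf10, Tnf, Fasl, Tnfsf11, Tnfsf14, Tnfsf13b, Tnfsf12 and Tnfsf9. The libraries of Tnfsf10, Tnf, Fasl and Tnfsf11 overlapped each other, between 4.61 and 7.31 TPM, and so did those of Tnfsf13b and Tnfsf12. In tumor the order was Tnf, Tnfsf9, Tnfsf10, Tnfsf12, Tnfsf14, Tnfsf8, Tnfsf11, Fasl, Tnfsf13b and Cd40lg. There Tnfsf12 overlapped with Tnfsf10 and with Tnfsf14, and the other neighbours in the order did not overlap. In spleen 1 of the 10 ligands, Cd40lg, was above the olfactory receptor level in every library, and in tumor 5 were. That level was 10.6 to 16.2 TPM in spleen and 7.59 and 10.7 TPM in tumor libraries. Listed values also summed higher in tumor. The share of all genes above the level was not counted, so these counts are not a result about the ligands.

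Several of the 10 have other ligand genes of the family as neighbours, and these did not always move together. Ltb and Lta, the lymphotoxins used in building lymphoid tissue, flank Tnf on chromosome 17 with gaps of 3060 and 1157 bases. Ltb averaged 74.2 ± 6.26 TPM over spleen (SD, n = 3) and 11.4 ± 2.05 TPM over tumor libraries (SD, n = 2) (log2 change -2.61 ± 0.21, SE; limma adjusted p = 1.74e-15). Lta was at 3.86 ± 0.64 and 0.80 ± 0.08 TPM (log2 change -1.43 ± 0.22, SE; limma adjusted p = 1.32e-07), a fall that was not called when scaled on the T cell identity genes (-0.06, limma adjusted p = 0.82, range 3.38e-11 to 0.82). So Tnf rose between 2 genes that fell in the deposited TPM. Tnfsf13 (APRIL, a plasma cell survival factor) is separated from Tnfsf12 by 465 bases and rose with it, from 0.48 ± 0.12 to 20.9 ± 0.99 TPM (log2 change 3.89 ± 0.21, SE; limma adjusted p = 6.92e-22). Cd70, the ligand of Cd27, lies between Tnfsf9 and Tnfsf14, 38.2 kb from the one and 39.7 kb from the other, and stayed at or under 0.29 TPM in every library. Tnfsf15 (TL1A) lies 86.2 kb from Tnfsf8 and was at 1.80 ± 0.53 and 6.28 ± 2.05 TPM (log2 change 1.37 ± 0.22, SE; limma adjusted p = 6.56e-07), a rise not called when scaled to equal sums or to sums without the 20 most abundant genes. Of the 8 other ligands, 2 rose, 2 fell, 1 (Eda) was not called and 3 (Tnfsf4, Tnfsf18 and Cd70) did not pass the filter. Over all genes tested, 40.9% rose and 18.1% fell. Tnfsf13 passed the filter through its tumor level alone, and Lta and Eda, under 1 TPM on average in tumor, through their spleen level alone. Lta, Tnfsf15 and Eda lay below the olfactory receptor level in every library.

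Of 28 TNF receptor superfamily genes, 22 were tested, of which 14 rose, 5 fell and 3 did neither, where 40.9% of all genes tested rose and 18.1% fell. Ltbr, Tnfrsf12a and Tnfrsf8, under 1 TPM on average in spleen, passed the filter through their tumor level alone. The median log2 change of the 22 tested receptors was 1.14, against 0.23 over all genes. Scaled to equal sums 11 receptors rose and 8 fell, while over all genes 2697 rose and 6789 fell. Scaled on the T cell identity genes 20 receptors rose and 1 fell, while over all genes 12955 rose and 110 fell. The falls numbered 2 without spleen replicate 3 or without tumor replicate 2, and 3 without spleen replicate 1.

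Cyld and Traf5 aside, a called receptor or downstream gene printed below without an SE had an SE of 0.21 to 0.22. Its limma adjusted p was at most 8.13e-07. Both Tnf receptors rose with their ligand. Tnfrsf1a, the death domain receptor of Tnf, averaged 5.84 ± 0.94 TPM over spleen (SD, n = 3) and 87.0 ± 15.9 TPM over tumor libraries (SD, n = 2) (log2 change 3.68 ± 0.21, SE; limma adjusted p = 7.95e-21). Tnfrsf1b, the second receptor, was at 9.43 ± 1.89 and 110 ± 1.00 TPM (log2 change 3.42). Cd40, the receptor of Cd40lg, had the largest rise of the receptor list on the log2(TPM + 1) scale, while its ligand fell. It went from 4.39, 3.43 and 3.38 TPM in spleen to 90.9 and 118 TPM in tumor (log2 change 4.47 ± 0.21, SE; limma adjusted p = 3.23e-24). B cells, dendritic cells and macrophages carry Cd40; in tumor the B cell marker sum was 12.3 to 14.0 TPM, the dendritic cell marker sum 117 to 166 TPM (51.5 to 60.7 TPM in spleen) and the macrophage marker sum 7162 to 7549.6 TPM, and their part in the rise of Cd40 was not tested.

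Receptors of the other costimulatory ligands also rose. Tnfrsf9, which activated T cells carry, was at 9.24 ± 1.97 TPM in spleen and at 93.7 and 54.5 TPM in tumor (log2 change 2.84), while its ligand Tnfsf9 was lower in tumor replicate 2 than in replicate 3. Tnfrsf8 was at 0.71 ± 0.085 and 3.41 ± 0.90 TPM (log2 change 1.35), below the olfactory receptor level in every library. Of the Tnfsf14 receptors, Ltbr, best known in stromal and myeloid cells, went from 0.60 ± 0.18 to 25.3 ± 1.36 TPM (log2 change 4.05). Tnfrsf14 was at 24.6 ± 2.94 and 47.4 ± 11.7 TPM (log2 change 0.90 ± 0.21, SE; limma adjusted p = 0.00029). The rise of Tnfrsf14 was not called without tumor replicate 3 (limma adjusted p = 0.0694) or when scaled to the upper quartile, and its sign turned when scaled to equal sums or to sums without the 20 most abundant genes (range of adjusted p 6.52e-10 to 0.986).

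Receptors of the death ligands had no common direction. Fas was at 12.3 ± 1.00 and 13.6 ± 0.72 TPM, with overlapping libraries (log2 change 0.14 ± 0.21, SE; limma adjusted p = 0.568); it was called as lower under 3 scalings and as higher on the T cell identity genes. Tnfrsf10b was at 12.9 ± 2.13 and 8.60 ± 1.69 TPM (log2 change -0.54 ± 0.21, SE; limma adjusted p = 0.0261). That call was lost with the replicate number as a block (limma adjusted p = 0.128), without spleen replicate 1 or 3, without tumor replicate 2 and with no filter (range 3.88e-05 to 0.346), and Tnfrsf10b rose by 1.46 when scaled on the T cell identity genes. The decoy receptor genes Tnfrsf22 and Tnfrsf23 are closely related neighbours, so their separate levels are uncertain. Tnfrsf22, at 24.6 ± 1.32 and 21.0 ± 3.96 TPM, was uncalled (log2 change -0.23 ± 0.21, SE; limma adjusted p = 0.352), though lower under 3 scalings and higher on the T cell identity genes. Tnfrsf23 was at 3.34 ± 0.40 and 9.85 ± 1.47 TPM (log2 change 1.32).

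Among receptors of the B cell and tissue ligands, Tnfrsf12a and Tnfrsf11a rose most. Tnfrsf12a (Fn14), the receptor of Tnfsf12, went from 0.59 ± 0.29 to 24.5 ± 0.53 TPM (log2 change 4.02) along with its ligand. Tnfrsf11a (RANK), the osteoclast and dendritic cell receptor of Tnfsf11, went from 4.32 ± 0.68 to 34.2 ± 0.72 TPM (log2 change 2.74), while Tnfsf11 was not called. Its decoy Tnfrsf11b was at or under 0.23 TPM in every library. Of the Tnfsf13b receptors, Tnfrsf13b was at 5.76 ± 0.42 and 11.3 ± 0.08 TPM (log2 change 0.87 ± 0.20, SE; limma adjusted p = 0.00029), a rise that was not called when scaled to the upper quartile or to equal sums and whose sign turned without the 20 most abundant genes in the sums. Tnfrsf13c was at 3.32 ± 0.31 and 1.95 ± 0.51 TPM, below the olfactory receptor level in every library (log2 change -0.56 ± 0.21, SE; limma adjusted p = 0.0216). That fall was not called without spleen replicate 1 or 3 or tumor replicate 2, or with no filter (range 0.000676 to 0.275), and it turned into a rise of 1.03 on the T cell identity genes. Tnfrsf17 was under 1 TPM in every library.

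**Figure D4:**
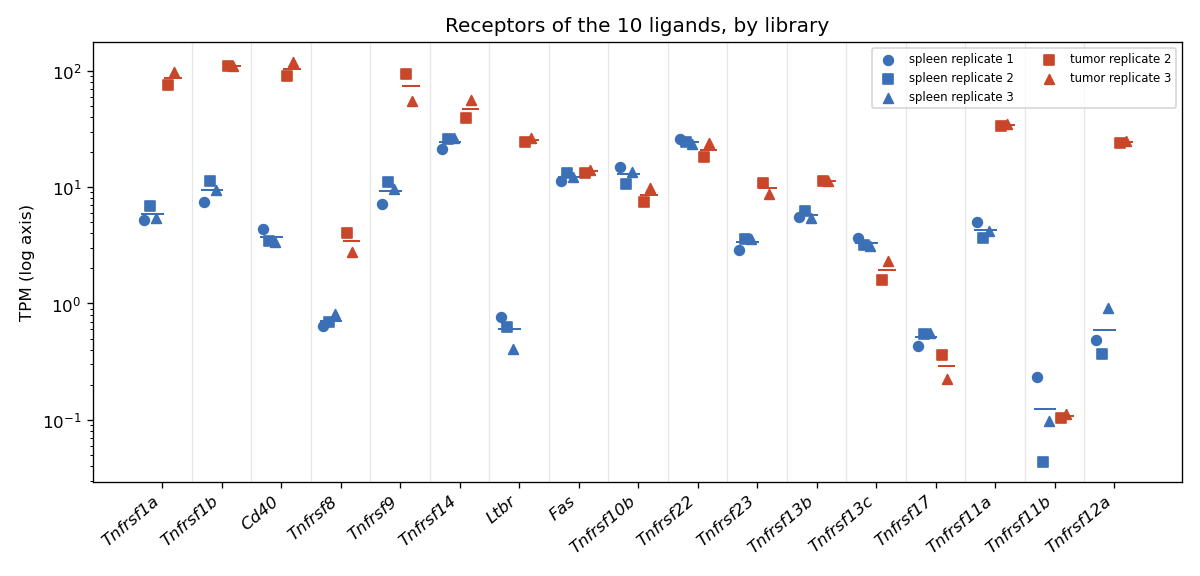
TPM (log axis) of the receptors of the 10 ligands in each library, with colours, shapes and mean bars as in the plot of the ligands. Cd40, Ltbr, Tnfrsf1a, Tnfrsf1b, Tnfrsf11a and Tnfrsf12a stand clear of the spleen libraries in both tumor libraries, and Fas, Tnfrsf22 and Tnfrsf11b overlap.

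The largest falls among receptors were those of Tnfrsf25 and Cd27, which are not receptors of the 10 ligands. Tnfrsf25 (DR3), the receptor of Tnfsf15 on T cells, fell from 14.4 ± 2.89 to 1.11 ± 0.20 TPM (log2 change -2.86), also on the T cell identity genes. Cd27, a costimulatory receptor of naive and memory T cells, fell from 67.4 ± 11.1 to 19.9 ± 2.68 TPM (log2 change -1.71), with an uncalled change of 0.41 on the T cell identity genes (limma adjusted p = 0.0593, range 7.31e-15 to 0.0593 over the alternatives).

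Downstream of the receptors, 14 of 18 adaptor and brake genes rose, 2 fell and 2 did neither, beside 40.9% of all genes that rose and 18.1% that fell. Their median log2 change was 1.07, against 0.23 over all genes. Scaled to equal sums 9 rose and 3 fell, while over all genes 2697 rose and 6789 fell. Tnfaip3 (A20), the ubiquitin-editing brake on TNF receptor signalling, went from 15.5 ± 2.75 to 307 ± 22.9 TPM (log2 change 4.24 ± 0.21, SE; limma adjusted p = 2.75e-23). Ripk3, a kinase of necroptosis, went from 7.81 ± 1.80 to 46.4 ± 0.57 TPM (log2 change 2.45). Cyld, a deubiquitinase that also restrains the pathway, and Traf5, an adaptor of costimulatory receptors, were at -0.56 and -0.54 on the log2 scale. Both falls were called with TPM as deposited (limma adjusted p = 0.0209 and 0.027) but not without spleen replicate 3 or either tumor replicate, nor for Traf5 without spleen replicate 1, with the replicate number as a block (limma adjusted p = 0.24) or with no filter. Over the alternatives the adjusted p ranged from 6.34e-07 to 0.144 for Cyld and from 1.09e-05 to 0.339 for Traf5, and both genes rose on the T cell identity genes.

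Genes that release or mature the ligands moved in both directions. Of 9 such genes 5 rose, 1 fell, 2 were uncalled and 1 (Rhbdf1) did not pass the filter, beside 40.9% of all genes that rose and 18.1% that fell. The median log2 change was 1.43 over the 8 tested, against 0.23 over all genes. Scaled to equal sums 4 rose and 3 fell, while over all genes 2697 rose and 6789 fell. Furin, the convertase that cleaves Tnfsf12 and Tnfsf13b, went from 5.61 ± 0.71 to 74.3 ± 1.07 TPM (log2 change 3.51). Rhbdf2 (iRhom2), which brings the TNF sheddase Adam17 to the cell surface, went from 1.89 ± 0.63 to 28.6 ± 4.56 TPM (log2 change 3.37). Frmd8, a partner of the iRhoms, was at 26.0 ± 5.09 and 11.2 ± 0.40 TPM (log2 change -1.13 ± 0.21, SE; limma adjusted p = 8.74e-06) and rose by 0.93 on the T cell identity genes. The macrophage marker sum differed between the same libraries by the amounts given at the start, and its part in these gene lists was not tested.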

How the data were processed

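Stranded total RNA libraries depleted of ribosomal RNA were sequenced from 5 samples of CD4+ T cells, per the labels' protocols. The values deposited by the authors, 1 per gene symbol and library, are taken as TPM because they have decimals and sum in no library to more than the fixed TPM total. Tools named by the submitters' processing notes are kallisto and DESeq2, and the build is mm10, without roles or versions. Listed values came to 26.9% to 59.6% of that total; read depth is unknown, and no counting interval is given.

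Genes whose mean reached 1 TPM were tested on log2(TPM + 1) with limma 3.58.1 in R 4.3.3 (tissue as the only term, mean-variance trend, two-sided, Benjamini-Hochberg over all 12979 genes). Residual degrees of freedom were 3 and prior degrees of freedom 44.1, so the error is drawn mainly from genes at like levels. Alternatives were 5 scalings, pseudocounts of 0.1 and 10, other filters and thresholds, no trend, a block for the replicate number, and leaving out single libraries. Coordinates come from GENCODE M21 (GRCm38) and promoters from RefSeq.

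The members and gene lists were chosen with earlier results of these data known. Named were all 10 ligands, their receptors, the 2 largest called rises and falls of each pathway list, Cd4, and markers beside a result; the other ligands, Tnfsfm13 and Rhbdf1 were named after their values were seen.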

Additional observations from a re-analysis of the deposited data

How the results depend on the processing

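The calls for Tnf, Tnfsf9, Tnfsf12, Tnfsf14 and Cd40lg kept their direction and passed the threshold under each of 17 alternatives. Leaving out 1 library at a time, 5 ligands rose in each case and 2 to 3 fell. Of the other ligands 2 to 3 rose and 2 to 3 fell, of the receptors 13 to 14 rose and 2 to 5 fell, of the adaptors 12 to 14 rose and 0 to 2 fell, and of the proteases 4 to 5 rose and 1 fell. Over all genes 4311 to 5894 rose and 1225 to 2609 fell, the lowest count of falls being without tumor replicate 2. Falls among adaptors numbered 1 without spleen replicate 1 and 0 without spleen replicate 3 or either tumor replicate. Where 1 tumor library was left, its spread was taken to be that of the spleen group.

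Over all genes, 2697 rose and 6789 fell when scaled to equal sums, 3051 and 6475 to the upper quartile, 2617 and 7501 to sums omitting the 20 most abundant genes (below, trimmed sums), and 12955 and 110 on the T cell identity genes. Rises were 69.3% of calls with TPM as deposited and 28.4%, 32.0%, 25.9% and 99.2% under these 4. Falls numbered 1456 with a filter at 5 TPM and 1552 at an adjusted p below 0.01. On the T cell identity genes 9 ligands rose and 1 fell. Of the other ligands, 1 rose with equal sums, trimmed sums and the 5 TPM filter, where 1 fell; on the T cell identity genes 4 rose and 1 fell. Receptors that fell numbered 8 with equal sums, the upper quartile or trimmed sums, 1 on the T cell identity genes, and 2 with no filter or at 0.01. Adaptors that rose numbered 9 with equal sums or the upper quartile and 8 with trimmed sums. Those that fell numbered 5 with trimmed sums, 0 on the T cell identity genes or at 0.01, and 1 with no filter or with the replicate block. Proteases that fell numbered 3 with equal sums or the upper quartile, 4 with trimmed sums and 0 on the T cell identity genes, where 8 rose. The scaling shifts all genes by construction.

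Signs turned on the T cell identity genes for Tnfsf8 (1.36), Fasl (0.89), Cd27 (0.41), Cd4 (0.10), Cyld (1.58), Frmd8 (0.93), Tnfrsf10b (1.46), Tnfrsf13c (1.03), Tnfrsf22 (1.86) and Traf5 (1.61). With equal sums, the upper quartile and trimmed sums, in that order, signs turned for Fas (-0.72, -0.62 and -0.80), Tnfsf11 (-0.74, -0.64 and -0.80) and Tnfsf13b (-0.20, -0.13 and -0.24). Tnfrsf14 turned with equal sums (-0.004) and trimmed sums (-0.081), and Tnfrsf13b with trimmed sums (-0.032). Tnfsf11 also turned by median ratios (-0.044), with the replicate block (-0.006) and without spleen replicate 1 (-0.006), and leaving out 1 library at a time it ranged from -0.222 to 0.276, the lowest without tumor replicate 2.

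Replicate numbers 2 and 3 occur in both tissues, and nothing in the labels says that they pair the samples. Deviations from the tissue means correlated across genes at r = 0.20 for number 2 and 0.07 for number 3. With 2 tumor libraries these deviations mirror each other, so the unmatched pairs were fixed at -0.20 and -0.07. Spleen 1 with tumor 2 gave -0.19, of like size. The correlations therefore cannot decide whether the numbers pair the samples. With the replicate block, 4877 genes rose and 2013 fell, and 5 ligands rose and 3 fell. Spleen replicate 1 has no partner, so the block gives the same changes as leaving it out. Low ligands (Fasl, Tnfsf13b, Tnfsf11) lie below the olfactory receptor level in every library, and depth is unknown.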
